A study of Mus musculus with 8 samples.

Results

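The genes described here are 10 genes used by natural killer (NK) cells and other innate lymphoid cells: Gzma, Prf1, Cd160, Klrd1, Fcer1g, Il18r1, Nfil3, Zbtb16, Rora and Icos. They were taken by name from the expression tables, where all 10 had a row among 24538 gene IDs, and the open-chromatin peaks in each gene's annotated span plus 50 kb either side were taken from the peak lists. The knockout cells came from CreER+ mice with floxed Tcf7 and floxed Lef1, and the control cells from CreER+ WT mice, so both genotypes carried the tamoxifen-inducible recombinase, whose promoter the labels do not name, and both received 4-OH tamoxifen on culture days 3 to 5. In each case the starting cells were bone marrow LSK stem and progenitor cells cultured over OP9-DL1 stroma, which presents a Notch ligand, and the cells sorted on day 7 were Lin-CD8-CD4-CD44hiCD25- ckit+, called DN1, the earliest thymocyte-like stage. RNA-seq and ATAC-seq, which maps DNA accessible to a transposase, each had 2 knockout and 2 control libraries, which the labels number without saying whether they came from separate mice, so the p-values measure the spread between these libraries only.

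NK cells and the helper innate lymphoid cells (ILCs) arise from lymphoid progenitors, like T cells, but carry no rearranged antigen receptor. NK cells kill through granules that hold perforin and granzymes, and they read their targets through lectin-like and immunoglobulin-like receptors that often signal through ITAM-bearing adaptors. In mice the ILC lineages depend on transcription factors that include NFIL3, PLZF (encoded by Zbtb16) and RORα (Rora). TCF-1, the product of Tcf7, is required early in the T lineage and is also present in ILC progenitors.

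The sequences upstream of 3 transcript starts are shown because the open region at each was found in the libraries of 1 genotype alone. Each is the 250 bases before a start in RefSeq (build GRCm38.p6), written 5′ to 3′ along the gene's strand, and 7 of the 10 genes had an entry in that table. Capitals mark matches, on either strand, to short words. The words searched were CTTTGAA and its variant that ends in T (CTTTGAT) for the TCF/LEF factors, TGTGGT for the RUNX factors, AGGAAG for the ETS factors, AGATAA for the GATA factors and GGTGTGA for the T-box factors, and no match overlaps another in these windows. The Gzma window is chr13:113100982-113101231 on the minus strand, the Cd160 window is chr3:96814522-96814771 on the minus strand, at the more downstream of this gene's 2 listed starts, and the Rora window is chr9:68653536-68653785 on the plus strand.
Gzma: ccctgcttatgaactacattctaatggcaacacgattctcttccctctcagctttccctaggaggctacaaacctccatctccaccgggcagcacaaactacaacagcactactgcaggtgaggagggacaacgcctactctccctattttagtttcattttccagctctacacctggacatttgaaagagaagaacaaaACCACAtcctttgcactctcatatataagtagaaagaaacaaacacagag
Cd160: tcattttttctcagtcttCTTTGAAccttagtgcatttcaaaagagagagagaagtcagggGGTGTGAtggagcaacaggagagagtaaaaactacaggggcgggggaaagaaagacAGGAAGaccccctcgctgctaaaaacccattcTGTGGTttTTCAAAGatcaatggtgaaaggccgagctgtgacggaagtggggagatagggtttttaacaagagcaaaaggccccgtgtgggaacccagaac
Rora: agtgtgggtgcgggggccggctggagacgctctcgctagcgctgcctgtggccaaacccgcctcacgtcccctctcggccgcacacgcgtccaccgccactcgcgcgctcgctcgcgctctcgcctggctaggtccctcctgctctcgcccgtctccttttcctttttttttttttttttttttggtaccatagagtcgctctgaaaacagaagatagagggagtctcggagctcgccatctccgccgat
The Gzma window held the RUNX word on the opposite strand, beginning 50 bases upstream of the start, and none of the other words. The Cd160 window held the TCF/LEF word 2 times, beginning 232 and 93 bases upstream on opposite strands, with a RUNX word at 101, an ETS word at 133 and a T-box word at 189 bases upstream. Of 32851 mouse promoter windows of the same length, 7.48% held a TCF/LEF word and 0.42% held 2 or more, while 14% held the RUNX word, 29.5% the ETS word, 9.99% the GATA word and 3.33% the T-box word. The Rora window held none of these letters. At the other starts, the Prf1 window held a RUNX word and an ETS word on each strand, the upstream Cd160 start a RUNX and an ETS word, and the Fcer1g window and the most downstream Il18r1 window an ETS word each. A match describes letters and is no evidence of binding.

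Tcf7 RNA was 13.2 and 12.4 TPM (a level scaled for transcript length and library size, which can be compared between genes) in the knockout libraries, against 518 and 510 TPM in the controls. Lef1 was at 1.46 and 1.57 TPM in the knockout and 1.66 and 1.10 TPM in the control libraries, too low in all 4 for its deletion to be read from RNA, and the tables do not say which exons were floxed. Il2ra, which encodes CD25, the surface protein the sort selected against, was at 0.658 and 0.393 TPM in knockout cells and at 136 and 133 TPM in control cells. The control level sits badly with the CD25- label, and whether both groups were at the same stage cannot be told from these tables. Kit and Cd44, the markers the sort selected for, were at 157 and 157 TPM and at 103 and 105 TPM in the knockout, against 251 and 238 TPM and 94.0 and 109 TPM in the controls. Depth could be compared only through the ratio of deposited coverage to FPKM, which was 2.64 and 2.63 in the knockout and 2.41 and 2.12 in the control RNA libraries. The peak lists held 109380 and 111007 peaks in the knockout and 103009 and 105227 in the controls.

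Of the 10 genes, 6 were lower in knockout cells (Gzma, Cd160, Fcer1g, Nfil3, Zbtb16 and Rora), none was higher, 2 did not pass the test (Klrd1 and Il18r1) and 2 were too low to test (Prf1 and Icos, with a mean under 1 TPM). The test was limma on log2(TPM + 1) over all 13228 genes with a mean of at least 1 TPM, with Benjamini-Hochberg adjusted p under 0.05. It called 39.8% of those genes, 14.7% lower and 25.2% higher in the knockout, against 6 of the 8 genes tested here called lower. Each of these 8 had a mean above 1 TPM in both genotypes. Both knockout libraries lay below both control libraries for 9 of the 10 genes, the exception being Klrd1, and for 29.0% of all tested genes. That share leaves out genes too low to test, while the 9 include Prf1 and Icos. The median log2 change was -0.81 over the 8 genes and 0.09 over all tested genes. The calls over all genes came to 1940 lower and 3331 higher, or 2396 lower and 2573 higher with median-ratio scaling, and to 3499, 3822, 3201 and 3383 in all without knockout library 1, knockout library 2, control library 1 and control library 2. In bulk RNA, fewer cells of a type and less RNA per cell cannot be told apart.

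**Figure D1:**
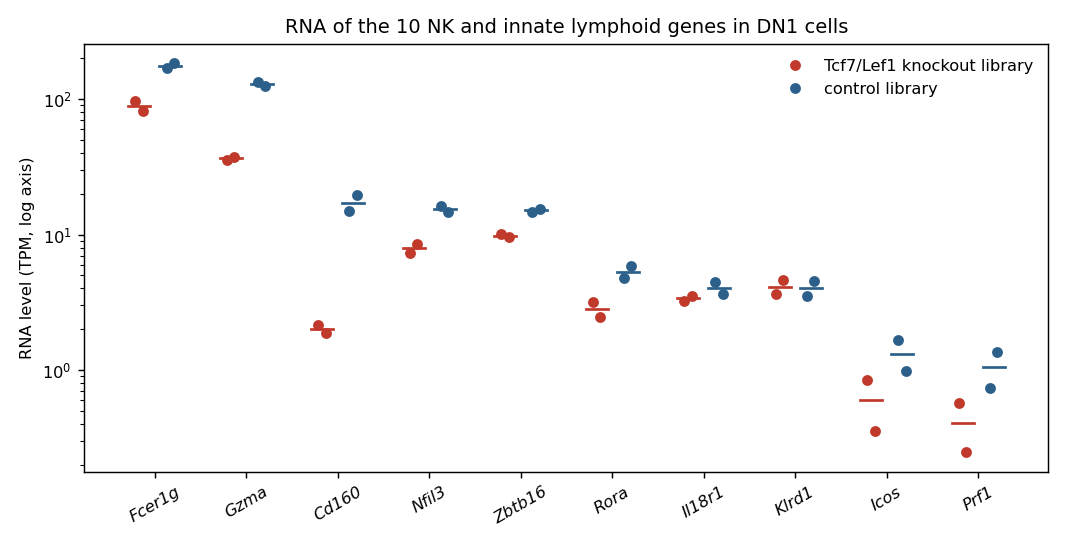
RNA level in TPM (log axis) of the 10 genes in each library, with 2 knockout libraries (red) left of 2 control libraries (blue) and a line at each group's mean. Red lies below blue without overlap for every gene except Klrd1, and the gap is widest on this axis for Cd160, at 2.17 and 1.88 TPM against 14.9 and 19.5 TPM.

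Among the cytotoxic effectors, Gzma, which encodes the granule serine protease granzyme A (chr13:113093827-113100981 in mm10, minus strand), was expressed at 35.8 and 37.2 TPM in knockout cells, against 134 and 126 TPM in control cells. The libraries of each genotype lay close together and the groups were far apart. The means were 36.5 ± 0.95 and 130 ± 5.4 TPM (SD, n = 2 each), a 3.56-fold lower level in the knockout and a log2 change of -1.80 (SE 0.060, limma adjusted p = 0.000151). Prf1, which encodes the pore-forming protein perforin (chr10:61297836-61304263, plus strand), was at 0.568 and 0.247 TPM in knockout and 0.735 and 1.35 TPM in control libraries. All 4 values are near the lower limit of measurement. With no filter on low values its log2 change was -0.53 (adjusted p = 0.324), which is not a call.

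The other granule genes followed Gzma in part. Gzmb, for granzyme B, was at 199 and 191 TPM in the knockout against 507 and 524 TPM in the control (log2 change -1.40, adjusted p = 0.000127). In a list of 16 cytotoxic granule genes, 14 were tested: 7 fell, 1 rose and 6 did not pass. This and the list counts below stand beside 14.7% of all tested genes called lower and 25.2% called higher. Their median log2 change was -0.30. Ctsw, for cathepsin W (-1.40), and Ctsc, for the granzyme-activating protease cathepsin C (-0.79), fell beside Gzmb, and Lamp1, a lysosomal membrane protein, rose (0.47). With no filter on low values the calls of Ctsw (adjusted p = 0.0507) and Lamp1 (0.0599) were lost. Among the genes that did not pass, Nkg7, for a granule membrane protein, was level at 121 and 131 TPM in the knockout against 125 and 126 TPM in the control. Srgn, for the granule proteoglycan serglycin, was at 626 and 687 TPM against 624 and 613 TPM.

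Of the receptors, Cd160 changed most. Cd160 encodes a glycolipid-anchored immunoglobulin-like receptor of NK and cytotoxic T cells (chr3:96798763-96829351, minus strand) and was at 2.17 and 1.88 TPM in the knockout, against 14.9 and 19.5 TPM in the control. The knockout libraries sat far below both controls, with means of 2.02 ± 0.20 and 17.2 ± 3.2 TPM (SD, n = 2 each), and the log2 change was -2.58 (SE 0.185, adjusted p = 0.000707). Fcer1g encodes the ITAM-bearing γ chain that carries signals for Fc receptors and for NK receptors (chr1:171229572-171234349, minus strand). It was the most abundant of the 10 genes, at 96.2 and 82.3 TPM in the knockout and 170 and 184 TPM in the control. The groups did not overlap, and the log2 change was -0.98 (SE 0.086, adjusted p = 0.00118). Klrd1 encodes CD94, which pairs with NKG2 receptors (chr6:129591811-129598775, plus strand), and was at 3.62 and 4.65 TPM in the knockout and 3.50 and 4.52 TPM in the control. The groups overlapped almost fully, with a log2 change of 0.04 (SE 0.211, adjusted p = 0.904) whose sign turned to -0.03 with median-ratio scaling, -0.02 with TPM rescaled without the most abundant gene, and -0.11 without knockout library 2 or without control library 1.

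Klrd1's partner genes were also low. Klrc1, for the inhibitory receptor NKG2A, was at 0.441 and 0 TPM in the knockout and 0.473 and 1.45 TPM in the control, and was not tested. Klrk1, for the activating receptor NKG2D, was at 0.826 and 1.62 TPM against 2.33 and 2.15 TPM (log2 change -0.57, adjusted p = 0.162), a difference that did not pass. In a list of 31 further NK and innate lymphoid receptors and effectors, 17 were tested, of which 9 fell, none rose and 8 did not pass, with a median of -0.81. The genes of that list with the largest called changes were Ccl5, for a chemokine of cytotoxic cells (-2.09), Cd7, for an early lymphoid surface protein (-1.72), and Ctsw (-1.40). Ifng, for interferon-γ, and Xcl1, for a chemokine of NK cells, were listed at 0 in all 4 libraries.

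Fcer1g has partners in several cell types, and these did not move as a group. Tyrobp, which encodes DAP12, the other main ITAM adaptor of NK and myeloid cells, was at 169 and 176 TPM in the knockout against 278 and 288 TPM in the control (log2 change -0.71, adjusted p = 0.000485). Of 16 Fc receptor and ITAM adaptor genes, 13 were tested, of which 6 fell, 2 rose and 5 did not pass, with a median of -0.33. Cd247, for the CD3ζ chain (-3.36), Lcp2, for the adaptor SLP-76 (-1.05), and Lat2, an adaptor of myeloid and mast cells (-0.88), fell, and with no filter on low values the calls of Cd247 (adjusted p = 0.0623) and Lat2 (0.0629) were lost. The genes that rose were Fcer1a and Ms4a2, which encode the chains that join the γ chain in the mast cell IgE receptor. Ms4a2 was at 18.4 and 20.6 TPM in the knockout against 4.70 and 3.96 TPM in the control (log2 change 1.95). Fcer1a was at 2.56 and 5.01 TPM against 0 and 0.345 TPM. It passed the filter only through the knockout libraries, and its adjusted p was 0.0555 without control library 1 and 0.0992 with no filter.

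**Figure D2:**
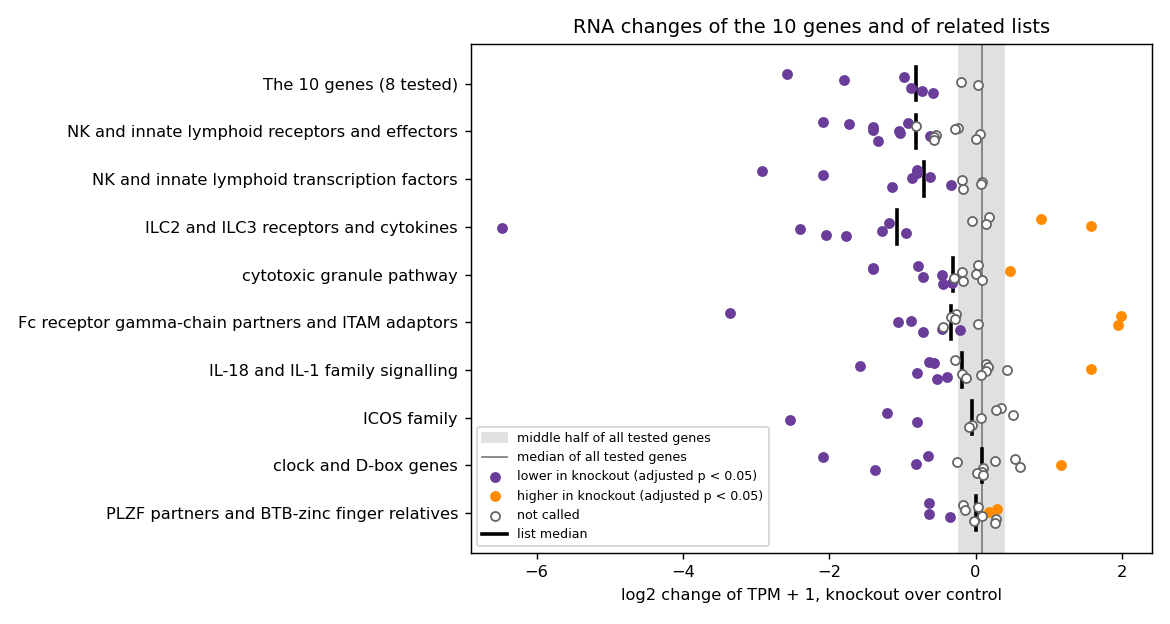
Log2 change of TPM + 1, knockout over control, for the 8 tested genes (top row) and for the tested genes of 9 related lists. Filled points passed adjusted p under 0.05, and black bars are list medians. Tcf7, a deleted gene, is left out of its list and that median, while Lef1, the other deleted gene, is kept in both. The median of the 8 genes is -0.81, and the shaded band with its line marks the middle of all tested genes around a median of 0.09.

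The cytokine and costimulatory receptors showed smaller or unmeasurable differences. Il18r1 encodes the ligand-binding chain of the interleukin-18 receptor (chr1:40465552-40500854, plus strand) and was at 3.22 and 3.53 TPM in the knockout, against 4.44 and 3.66 TPM in the control. The knockout values lay just below the controls, and the log2 change of -0.20 (SE 0.191, adjusted p = 0.433) did not pass. Il18rap, which encodes the signalling chain of the same receptor from the neighbouring locus, was at 17.8 and 17.9 TPM against 25.3 and 28.8 TPM and passed (log2 change -0.57, adjusted p = 0.00845), though not with no filter on low values (0.0643). Whether the 2 chains changed by different amounts was not tested. Il18, for the cytokine itself, was at 3.28 and 3.08 TPM against 4.83 and 3.43 TPM and did not pass (adjusted p = 0.337). Of 15 genes of IL-18 and IL-1 family signalling, all tested, 6 fell, 1 rose and 8 did not pass, with a median of -0.19. The decoy receptor gene Il1r2 (-1.58), the kinase gene Irak2 (-0.80) and the inhibitor gene Il18bp (-0.64) fell, and Il1rl1, for the IL-33 receptor, rose (1.58). The calls of Il1r2 and Irak2 were lost without either control library, with adjusted p of 0.0961 and 0.0686 for Il1r2 and of 0.0506 and 0.0690 for Irak2, and that of Il18bp without either knockout library (0.0709 and 0.0919) or without control library 1 (0.112).

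Icos encodes an inducible costimulator of T cells and ILC2s (chr1:60977914-61000321, plus strand) and was at 0.841 and 0.356 TPM in the knockout and 1.65 and 0.985 TPM in the control. The knockout values lay below the controls at levels too low to test, and with no filter on low values the log2 change was -0.54 (adjusted p = 0.365). Other genes of its family were better measured. Ctla4, for the inhibitory receptor CTLA-4, was at 1.17 and 1.73 TPM in the knockout against 11.7 and 14.7 TPM in the control (log2 change -2.54, adjusted p = 0.00101). Cd28, for the T cell costimulator, was at 0.794 and 0.518 TPM against 2.80 and 2.86 TPM (log2 change -1.21, adjusted p = 0.0141), and its adjusted p was 0.0566 without knockout library 2, 0.0659 without control library 1 and 0.0672 without control library 2. Icosl, for the ICOS ligand, was at 2.41 and 2.05 TPM against 4.29 and 4.95 TPM (log2 change -0.80, adjusted p = 0.0262), and no call was left when any 1 library was removed (adjusted p from 0.0661 to 0.120). These were the 3 genes that fell among 9 tested of a list of 10 ICOS family genes, in which none rose, 6 did not pass and the median was -0.05.

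All 3 transcription factor genes were lower in the knockout, with calls of unequal strength. Nfil3 encodes a basic leucine zipper repressor needed for NK and ILC development in mice (chr13:52967209-52981039, minus strand) and was at 7.36 and 8.49 TPM in the knockout, against 16.2 and 14.8 TPM in the control. The groups were well apart, and the log2 change was -0.89 (SE 0.131, adjusted p = 0.00508), with an adjusted p of 0.0516 when no filter on low values was used. Zbtb16 encodes PLZF, a zinc finger factor of ILC progenitors and innate-like T cells (chr9:48654297-48835945, minus strand), and was at 10.1 and 9.62 TPM in the knockout against 14.8 and 15.5 TPM in the control. It had the smallest called difference of the 10 genes but little spread within groups (log2 change -0.58, SE 0.111, adjusted p = 0.0120), and the adjusted p was 0.0562 without control library 1 and 0.0703 without control library 2. Rora encodes a nuclear receptor needed for ILC2s in mice (chr9:68653786-69388246, plus strand) and was at 3.16 and 2.45 TPM in the knockout, against 4.81 and 5.85 TPM in the control. The groups did not overlap, but the call was close to the threshold (log2 change -0.74, SE 0.204, adjusted p = 0.0373). It was lost without any 1 library, with adjusted p of 0.0658 and 0.131 without knockout libraries 1 and 2 and of 0.0858 and 0.162 without control libraries 1 and 2.

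The ratio of deposited coverage to FPKM, which for 7 of the 10 genes was the same as for most genes of the library, was only 0.256 and 0.299 in the knockout and 0.372 and 0.289 in the control for Rora. For Il18r1 it was 1.42 and 1.38 against 1.74 and 1.85. Cd160 was slightly below most genes, at 2.58 and 2.57 in the knockout and 2.29 and 2.02 in the control. The deposited columns of these genes are therefore not scaled alike, and the labels do not say how they were combined, which limits the Rora values most. Rora also overlaps 2 low-level genes, 9530091C08Rik on its own strand and Gm15511 on the opposite strand, neither above 1.47 TPM in any library.

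Other transcription factors of the NK and ILC programme were lower as well. Of 19 listed factors, 18 had a row and 13 were tested, of which 9 fell, none rose and 4 did not pass, with a median of -0.79, a list that includes the deleted Tcf7 and Lef1. Besides Tcf7 (-5.22), the largest falls were in Bcl11b, for a T lineage and ILC2 factor (-2.92), and Gata3, for a factor of T cells and ILC2s (-2.09). Id2, for the E protein inhibitor that ILCs require, was at 32.0 and 35.1 TPM in the knockout against 53.3 and 51.4 TPM in the control (log2 change -0.63, adjusted p = 0.00275). Tox, for a nuclear factor of NK and ILC progenitors, was at 17.6 and 17.8 TPM against 39.6 and 41.0 TPM (log2 change -1.14, adjusted p = 0.00064). Tbx21 and Eomes, for the T-box factors of mature NK cells, were under 0.37 TPM in all 4 libraries.

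The circadian clock pairs NFIL3 with the D-box activators, which bind the same sites, and RORα with the NR1D repressors. Of 17 such clock and D-box genes, 13 were tested, of which 4 fell, 1 rose and 8 did not pass, with a median of 0.09. Bhlhe40 (-2.09), Per1 (-1.37) and Dbp (-0.81) fell and Hlf, for a D-box activator of stem cells, rose (1.16). Of 12 PLZF partners and relatives, all tested, 3 fell, 2 rose and 7 did not pass, with a median of 0.01. Over all tested genes 39.8% were called, 14.7% lower and 25.2% higher, and the median was 0.09. Runx1 (-0.63), Bcl6 (-0.63) and Zbtb17 (-0.35) fell, and Hdac3 (0.30) was among those that rose, a call that was lost with quantile normalization (adjusted p = 0.0686). The call of Bcl6 was lost without either knockout library (0.104 and 0.0654) and without control library 2 (0.115), and that of Zbtb17 without knockout library 1 (0.0613) and without control library 1 (0.0758). Of 22 receptors and cytokines of ILC2s and ILC3s, 12 were tested, of which 7 fell, 2 rose and 3 did not pass, with a median of -1.07. Il2ra (-6.48), Il7r, for the interleukin-7 receptor (-2.39), and Ltb, for lymphotoxin β (-2.05), fell, while Il1rl1 (1.58) and Cd81 (0.89) rose. Among the genes of these lists named so far, Bcl11b, Il2ra and Cd28 had knockout means under 1 TPM and passed the filter only through the controls, so their falls are no support for the counts.

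In knockout cells the order of the 10 levels was Fcer1g, Gzma, Zbtb16, Nfil3, Klrd1, Il18r1, Rora, Cd160, Icos and Prf1. Only the last pair of neighbours, Icos and Prf1, had overlapping values. In control cells the order was Fcer1g, Gzma, Cd160, Nfil3, Zbtb16, Rora, Il18r1, Klrd1, Icos and Prf1. There the neighbours Cd160 and Nfil3, Nfil3 and Zbtb16, Il18r1 and Klrd1, and Icos and Prf1 overlapped. Cd160 thus stood in the third place in control cells and in the eighth in knockout cells.

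The genes whose pattern over the 4 libraries was nearest to 3 of the genes were found by the Euclidean distance of row-centred log2(TPM + 1). Nearest to Gzma were Pde3b, for a cyclic nucleotide phosphodiesterase, at a distance of 0.0462, Vegfa, for a vascular growth factor, at 0.0618, and Colq at 0.0802. Pde3b was at 39.0 and 39.6 TPM in the knockout against 145 and 140 TPM in the control. Nearest to Cd160 were the microRNA gene Mir3473d at 0.187, which was listed at 0 in both knockout libraries, Ptprf, for a receptor phosphatase, at 0.265, and Ankrd37 at 0.283. Colq, Mir3473d and Ptprf had knockout means under 1 TPM and passed the filter only through the controls. Nearest to Zbtb16 were Uba7, for an ISG15-activating enzyme, at 0.00885, Pnpla7 at 0.0126 and Ppp3cc, for a calcineurin subunit, at 0.0227. Distances over 4 libraries in 2 groups mostly order genes by the size of their difference between genotypes.

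Open chromatin around the 10 genes was compared through regions, made by merging the peaks of the 4 lists wherever they overlapped by at least 1 base. The windows held 254 regions, of which 23 were found in both knockout lists and no control list (knockout-alone), 15 in both control lists and no knockout list (control-alone), 138 in all 4 lists and 78 in other mixtures. The shares were 9.06% knockout-alone and 5.91% control-alone, against 6.63% and 4.79% of all 134830 regions. Without the long Rora window they were 6.56% and 7.65% of 183 regions. The knockout-alone share then stood near the background and the control-alone share above it, with the Gzma window alone holding 5 of these 14 control-alone regions. There is no read count behind these lists and no test was made. The counts are larger with 1 list left out, since a class then needs presence or absence in 1 list in place of 2. Control-alone regions then numbered 22, 23, 25 and 27 without knockout libraries 1 and 2 and control libraries 1 and 2 in turn. For 86 of the 254 regions, and 13 of the 38 found in 1 genotype alone, the nearest gene start was that of the gene whose window held it.

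**Figure D3:**
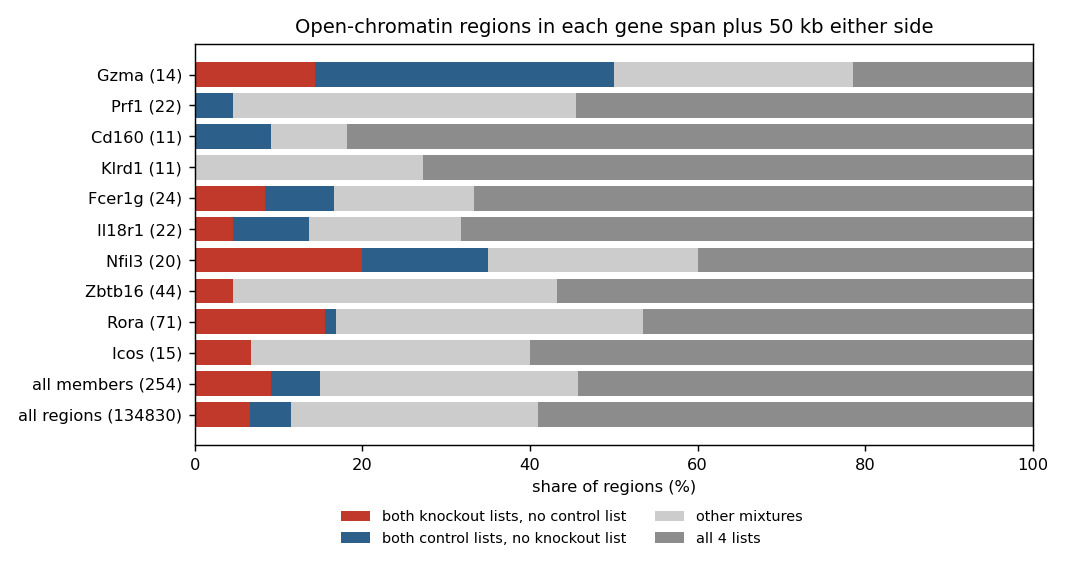
Share of open regions by class in each gene span plus 50 kb either side, with the number of regions in brackets, and at the bottom the 10 windows together and all 134830 regions. The blue part, regions in both control lists alone, is widest for Gzma (5 of 14), the red part, both knockout lists alone, is widest for Nfil3 (4 of 20), and Klrd1 has neither.

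Fewer peaks were called around Gzma in the knockout. Its window held 8 and 6 peaks in the knockout lists and 11 and 11 in the control lists, and 5 of its 14 regions were control-alone and 2 knockout-alone. Of 22230 gene windows with any region, 0.508% held at least 5 control-alone regions, and the median window held none. A control-alone region lay over the Gzma start itself, at chr13:113100886-113101151, which covers most of the printed window. Its −log10 q, the caller's own measure of evidence within a list, was 12.8 and 10.2 in the control lists, and no peak was called there in either knockout list. Among all 24528 annotated gene starts, 0.196% lay under a control-alone region and 0.938% under a knockout-alone region. The strongest control-alone regions of the window lay 29.7 kb downstream of the start, at chr13:113071090-113071468 (32.7 and 34.6), and 34.0 kb upstream, at chr13:113134851-113135184 (19.0 and 31.3). The first was nearest to the start of Gpx8, 24.9 kb away, and the second to that of 1700084D21Rik, 1.06 kb away. The control-alone region 19.8 kb upstream was also nearest to the start of 1700084D21Rik. Both knockout-alone regions lay within 1.4 kb of the start of the neighbour Gpx8, whose RNA was higher in the knockout (log2 change 1.36). A region 1.025 kb upstream of Gzma was in all 4 lists, with 26.0 and 20.9 in the knockout and 25.4 and 32.9 in the control.

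Around Cd160, 1 region out of 11 was control-alone and none was knockout-alone. It lay at chr3:96814404-96814701, over the more downstream start whose upstream sequence with 2 TCF/LEF words is printed above, 14.8 kb inside the gene from its outer annotated start. Its −log10 q was 22.1 and 17.4 in the control lists, with no peak in the knockout lists. The outer start itself lay under no region in any list. A further region 18.5 kb upstream of that start, at chr3:96847561-96848199, was in all 4 lists. It was at 14.7 and 7.46 in the knockout and 210 and 209 in the control. Its nearest gene start was that of 4930442L01Rik, 15.8 kb away. The knockout values were far below the control values there, although the lists are not scaled to each other. The region 17.7 kb upstream, also nearest to the 4930442L01Rik start, had 17.9 and 36.2 in the knockout against 19.8 and 12.4 in the control.

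At Rora the annotated start lay under a knockout-alone region, while the RNA of the gene as a whole was lower in the knockout. The RNA levels are given per gene, so how much of the Rora RNA came from this start was not tested. A knockout-alone region lay at chr9:68653484-68653930, with −log10 q of 22.0 and 12.7 in the knockout lists and no control peak, over the whole of the printed Rora window. Only the peak of knockout library 2 covered the annotated start, and that of knockout library 1 ended 16 bases before it. The Rora window held 60 and 56 peaks in the knockout lists and 47 and 46 in the control lists, and 11 of its 71 regions were knockout-alone against 1 control-alone. At least 11 knockout-alone regions were found in 0.0405% of gene windows, but this window, at 834 kb, is among the long ones and its regions are many. The strongest knockout-alone regions after the start were at 161 kb (12.2 and 12.1) and 61.0 kb (11.1 and 11.0) downstream of it, inside the gene. The control-alone region was at chr9:69023380-69023856, 370 kb inside the gene (15.6 and 13.2).

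**Figure D4:**
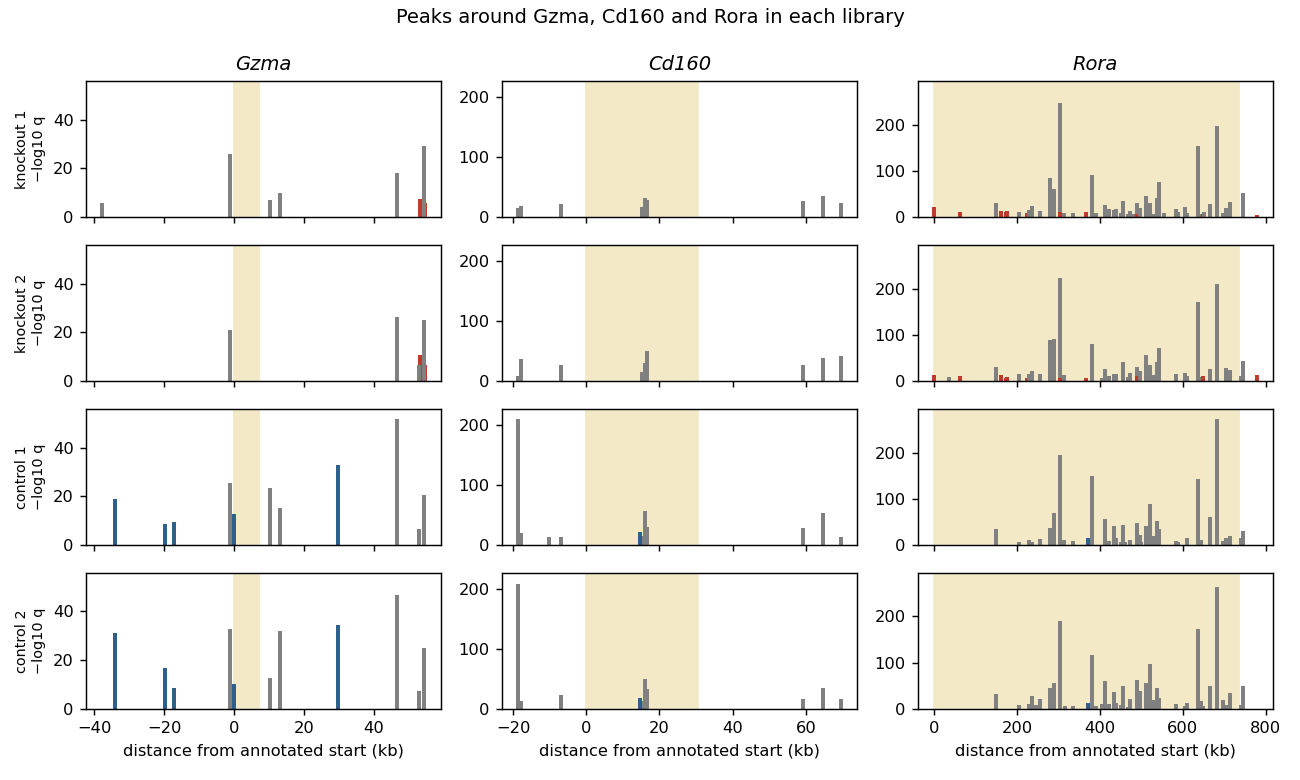
−log10 q of each peak (the caller's value within each list) against distance from the annotated start in kb for Gzma, Cd160 and Rora, in 2 knockout lists above 2 control lists, with the gene span shaded, red for knockout-alone, blue for control-alone and grey for other regions. The Gzma control panels show 5 blue peaks, and 11 red regions are spread along Rora. In the Cd160 panels the tall peak 18.5 kb upstream stands at 210 and 209 (control) and at 14.7 and 7.46 (knockout). Its nearest gene start is that of 4930442L01Rik.

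The starts of the other 7 genes lay under regions found in all 4 lists. At Klrd1, the gene with level RNA, the start region was at 148 and 151 in the knockout and 244 and 254 in the control, and no region of its window was found in 1 genotype alone. At Fcer1g it was at 40.8 and 63.4 in the knockout and 76.2 and 80.1 in the control. At Prf1 it was at 109 and 138 against 141 and 130, although the RNA was near the lower limit in both genotypes. At Icos the values were 26.2 and 16.7 against 33.0 and 36.8, at Il18r1 55.1 and 68.4 against 73.5 and 60.0, at Nfil3 101 and 118 against 107 and 104, and at Zbtb16 42.0 and 29.2 against 41.4 and 34.6. The Nfil3, Zbtb16, Il18r1 and Prf1 values overlapped between genotypes, and the Klrd1, Fcer1g and Icos values did not, being lower in the knockout. All are −log10 q values of the caller within each list, and the lists are not scaled to each other. How often the start regions of other genes differed in this way was not counted, so no loss of openness is read from these values.

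Away from the starts, the Nfil3 window had the most mixed picture, with 4 knockout-alone and 3 control-alone regions out of 20. Its strongest control-alone region lay 19.6 kb upstream of the start, at chr13:53000502-53000777 (29.1 and 24.5), and its strongest knockout-alone region 4.55 kb upstream, at chr13:52985492-52985680 (13.3 and 11.7). At Il18r1 a control-alone region lay 1.385 kb upstream of the start, at chr1:40463984-40464350 (24.6 and 24.0). The knockout-alone region of that window, at chr1:40418595-40418804 (13.4 and 15.6), was nearest to the start of Il1rl1, whose RNA rose in the knockout. The Icos window had 1 knockout-alone region, nearest to Ctla4 (6.32 and 6.62), and the Prf1 window 1 control-alone region, 39.0 kb downstream (13.8 and 7.42). The Fcer1g window had 2 of each class, the strongest being control-alone 26.8 kb upstream (14.8 and 16.4), and the Zbtb16 window had 2 knockout-alone regions inside the gene (11.1 and 6.80, and 8.38 and 6.50).

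Markers of other cell types moved with genotype in these libraries, and their part in the results above was not tested. The markers that define mature NK cells were at or near 0, with 4 of 10 (Klra8, Klra4, Klra7 and Klre1) listed at 0 in all libraries, 9 of 10 with a mean under 1 TPM, and a sum of 2.62 and 3.09 TPM in the knockout and 4.78 and 5.18 TPM in the control. All 5 ILC3 markers had a mean under 1 TPM, with sums of 2.23 and 1.66 TPM against 1.19 and 1.52 TPM. The 6 ILC2 markers summed to 30.6 and 29.3 TPM against 71.7 and 71.6 TPM, of which Gata3 and Il17rb fell and Il1rl1 rose, while Il5, Il13 and Areg had means under 1 TPM. The NK marker with the highest mean was Klrk1, at 0.826 and 1.62 TPM against 2.33 and 2.15 TPM. The NK and ILC name thus describes the genes. The NK and ILC3 marker levels were too low to name the sorted cells by it. The ILC2 sums came mostly from Gata3, Il17rb and Il1rl1, which did not all move the same way, and Gata3 is also a T cell factor. T lineage markers summed to 46.1 and 45.6 TPM against 362 and 379 TPM, with all 8 tested of 10 lower, of which Cd3d, Cd3e, Cd3g and Bcl11b had knockout means under 1 TPM and passed the filter only through the controls. Mast cell and basophil markers, a source of Fcer1g RNA, summed to 636 and 648 TPM against 276 and 269 TPM, with 11 of 12 higher and Cpa3 lower, while Fcer1g was lower in the same libraries. Markers of the stromal monolayer summed to 2293 and 1905 TPM against 925 and 952 TPM, with 11 of 12 higher. Fcer1a among the mast cell markers, and Plin1 and Postn among the stromal ones, had control means under 1 TPM. They passed the filter only through the knockout, so their rises are no support for these counts. Markers of monocytes, macrophages and neutrophils summed to 3473 and 3365 TPM against 1930 and 1915 TPM, with 4 of 11 tested higher. Mpo, for myeloperoxidase, made up most of that sum, at 2256 and 2196 TPM against 980 and 979 TPM, and the list's median log2 change was 0.09, close to that over all genes. Ptprc, for the pan-leukocyte protein CD45, was at 129 and 142 TPM in the knockout against 207 and 232 TPM in the control. Its log2 change was -0.69 (limma adjusted p = 0.00203, and 0.0600 with no filter). That of Zbtb16 was -0.58, and whether these changes differ in size was not tested. Dendritic cell markers summed to 147 and 155 TPM against 213 and 200 TPM, with 3 of 8 tested lower and 1 higher, and B lineage markers to 26.7 and 23.3 TPM against 15.3 and 15.7 TPM, with 6 of 8 having a mean under 1 TPM.

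**Figure D5:**
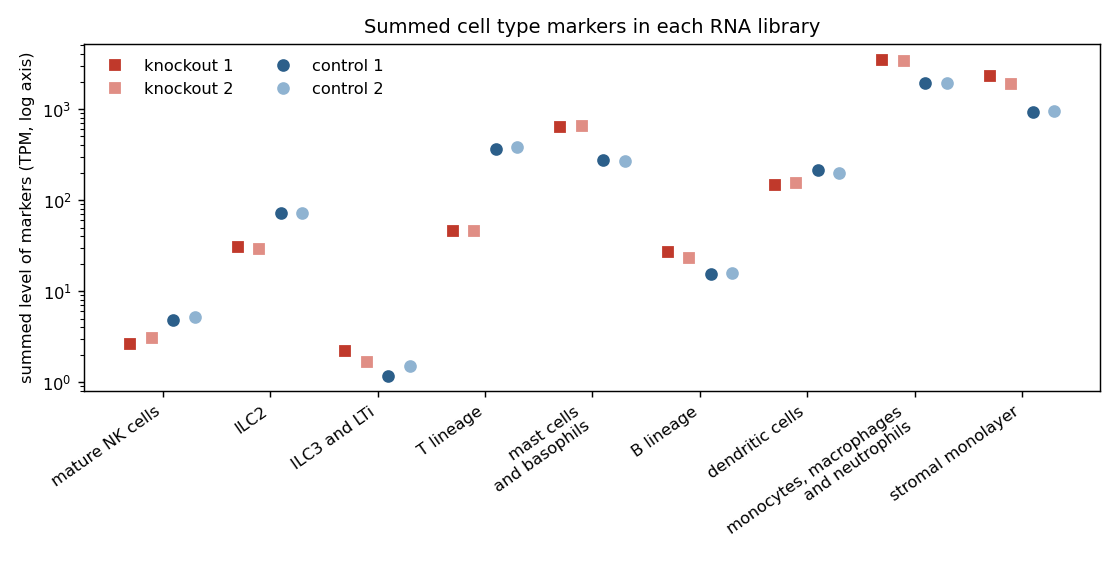
Summed TPM (log axis) of the marker genes of 9 cell types in each RNA library, with knockout libraries as red squares left of control libraries as blue circles. Mature NK sums stay under 5.2 TPM in all 4 libraries, T lineage and ILC2 sums are lower in the knockout, and mast cell, stromal and myeloid sums are higher, the last mostly through Mpo.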

How the data were processed

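RNA and open chromatin were measured in 4 libraries each, 2 knockout and 2 control. The deposited gene tables give TPM, FPKM and per-base coverage for each gene, and the submitters' processing notes name HISAT2, StringTie, Bowtie2 and MACS2 and the build mm10, with versions not given in the sources used here. The deposited peak lists, 1 for each library, give the caller's signal as a fold ratio and its p and q values as −log10 values, with a score not used here. No read counts were at hand, so a count test was not possible and depth is known only relatively, and how peaks were filtered is not given.

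Gene differences were fitted with limma 3.58.1 (R 4.3.3, empirical Bayes with an intensity trend) on log2(TPM + 1), over genes with a mean of at least 1 TPM, on genotype alone, and p-values were adjusted by Benjamini-Hochberg over all 13228 genes. Fold changes on this scale understate the changes of low genes. On simulated data of 13228 genes for this comparison, the fit recovered 94% of 100 genes changed by 1 log2 unit and 100% of 100 changed by 2. Peaks on the mitochondrial genome were left out, and merged regions were described without a test. Named genes were the 10 genes, Tcf7 and Lef1, the called genes with the 3 largest changes per direction in each related list, direct partners, and the 3 genes nearest in pattern to Gzma, Cd160 and Zbtb16. Nkg7, Srgn, Ifng, Xcl1, Tbx21, Eomes, Cd3d, Kit, Cd44, Ptprc and Gpx8 were named after their values were seen. Sites were the region over each start and up to 3 regions per class and window, and the regions in all 4 lists near Gzma and Cd160 were added after their values were seen. The genes and lists were chosen with earlier results of these data known. Promoter sequences came from RefSeq (GRCm38.p6) and were matched by symbol. Alternatives covered the pseudocount, the low-value filter, scaling, FPKM, a replicate block, peak thresholds, overlap, window size and leaving out each library, and a TPM rescaled without the most abundant gene (Rpph1) was added after the data were seen. Some genes of the related lists that the naming rule covers are not reported here by name.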

Additional observations from a re-analysis of the deposited data

How the results depend on the processing

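Over the alternatives run, Gzma, Cd160 and Fcer1g were lower in the knockout and past the threshold in every one. The number of the 10 genes called lower was 6 as reported and with either pseudocount, quantile normalization, median-ratio scaling, FPKM and TPM without the most abundant gene, 5 where genes needed a mean TPM of 5 and 4 with no filter on low values, which tests more genes, and it ranged from 4 to 5 with 1 library left out. Calls over all genes numbered 5271, against 2383 with no filter and 3201 to 3822 with 1 library left out, a fit in which the lone library is assumed to vary like the other group. Same-numbered knockout and control libraries did not deviate together (correlation 0.004 over 13228 genes), which cannot show whether they shared a mouse, culture or batch. A replicate block gave 4870 calls, 5 of them among the 10 genes, with Rora at an adjusted p of 0.0623. The Rora call was also lost with no filter (0.157). The sign of the log2 change turned for 3 genes that were not called, and the cause was not tested. Klrd1 was at 0.036 and came to -0.031 with median-ratio scaling, -0.017 without the most abundant gene and -0.111 to 0.184 with 1 library left out. Lef1 was at 0.089 and came to -0.081 to 0.260 with 1 library left out. Cd44 was at 0.040 and came to -0.070 with quantile normalization, -0.044 with median-ratio scaling, -0.026 without the most abundant gene and -0.066 to 0.145 with 1 library left out.

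Knockout-alone regions numbered 23, against 10 with −log10 q of at least 10 (5.26%, where all regions gave 5.95%) and 14 with 10 kb either side (9.09%, against 6.63%). Control-alone regions numbered 15, against 18 (9.47%, against 5.36%) and 4 (2.60%, against 4.79%) under the same settings, so which class was the larger turned at the stricter q. With 1 list left out, a class needs presence or absence in 1 list in place of 2. The counts were then 28 to 34 knockout-alone and 22 to 27 control-alone. Without knockout library 1, knockout library 2, control library 1 and control library 2 in turn, the knockout-alone shares were 13.9%, 13.9%, 11.5% and 12.3%, against 12.8%, 12.2%, 9.47% and 10.2% of all regions. The control-alone shares in the same order were 9.02%, 9.39%, 10.3% and 11.1%, against 6.75%, 7.16%, 8.54% and 7.94%. The control-alone regions at the Gzma start and at the more downstream Cd160 start were found in every alternative, most of which could not have changed them. Window size does not enter that class. Both control peaks covered each of these starts with no knockout peak, so leaving out a list left the class fixed. Their lowest −log10 q was 10.2, so both q thresholds kept them too. With a reciprocal overlap of at least 50%, which could have differed, both were still found. The Rora start lay under no region without knockout library 2. With a reciprocal overlap of at least 50% the Rora start itself was not under knockout-alone peaks, since the peak of knockout library 1 ends 16 bases before it. The number of libraries and the use of peak lists in place of read counts limit these results.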
